A study of Mus musculus with 2 samples.

Results

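The MYC network is a set of transcription factors that share a basic helix-loop-helix leucine zipper, and 10 of its genes were followed here among the 28692 genes counted in each library: Myc, Mycl, Mycn, Max, Mxd1, Mxd3, Mxd4, Mxi1, Mnt and Mga. They were taken by gene symbol, and each symbol matched 1 row. MYC proteins bind DNA only as a pair with MAX, at the E-box CACGTG, and raise the transcription of genes for ribosome assembly, nucleotide synthesis and growth. The MXD proteins, MNT and MGA compete for the same partner and the same site and repress transcription, the MXD proteins and MNT through SIN3 and histone deacetylases and MGA as part of a Polycomb complex. In human small cell lung cancer, a fast-growing neuroendocrine lung tumour, MYC, MYCL and MYCN are each amplified in some tumours, usually not together, and MAX or MGA is lost in others.

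Tumour cells were taken from the lungs of mixed-strain mice that carried a CGRPCreER allele (an inducible Cre at the Calca locus, active in pulmonary neuroendocrine cells), floxed alleles of tumour suppressors including Rb1 and Trp53, and the Rosa26mTmG reporter, which turns a recombined cell green. Both groups carried these alleles. Mice were given saline (vehicle) or the DNA-crosslinking drug cisplatin (5 mg per kg of body weight), with 1 dose each 4 days over 2 weeks, and live GFP-positive cells were sorted, with 5000 loaded per library. The library protocol names etoposide beside cisplatin for the treated tumours, so whether it was also given cannot be told. Age and the number of animals per library are not given in the sources used here. There was 1 library per group, so no difference below has a replicate check or a test, and all intervals are exact 95% intervals that cover counting error only.

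Levels are in UMIs per 1000000 UMIs counted (CPM), where a UMI, or unique molecular identifier, marks 1 captured RNA molecule. The vehicle library held 32519922 UMIs over 3726 barcodes and the cisplatin library 28777462 over 4254 barcodes. After filtering, 3641 vehicle and 4208 cisplatin cells were neuroendocrine tumour-like, a class whose clusters each had 9 to 11 of 12 neuroendocrine markers at 100 CPM or more, and these cells carry the results. The libraries filled different clusters of this class: clusters 0, 1 and 6 were almost all vehicle and 3, 5, 9, 10 and 11 almost all cisplatin, so cluster and library cannot be told apart there. Clusters 9 and 10 had all 6 genes of a delta-like list at that level (Hhex, Isl1, Sst, Pnoc, Ceacam10 and Hoxb8) and held 17 vehicle and 754 cisplatin cells. The list was chosen with earlier results of these data known, so it does not test the name. Both clusters are called delta-like, and results that rest on them are given with and without them. Of the barcode sequences, 23 occurred in both libraries.

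The binding site of the network can be set beside the members' own promoters, which shows how the E-box is spread over the genes measured. RefSeq promoters (GRCm38.p6, 250 bases before to 50 bases after the start site) were on hand for 9 members. On either strand, the E-box CACGTG, a palindrome, occurred once in the promoters of Max (chr12:76962199-76962498, minus strand), Mxd4 (chr5:34187661-34187960, minus strand) and Mnt (chr11:74830674-74830973, plus strand), and 7.15% of all 32851 promoters of this length held it. The E2F-type letters TTTNNCGC or their reverse complement, held by 5.17% of the promoters, occurred 3 times in that of Mycn (chr12:12941787-12942086, minus strand), with overlapping matches. The promoter of Mxd3 (chr13:55329682-55329981, minus strand), the member that differed most between cell cycle states, held neither. Each is written 5′ to 3′ on the gene's strand with the matches in capitals.
Max: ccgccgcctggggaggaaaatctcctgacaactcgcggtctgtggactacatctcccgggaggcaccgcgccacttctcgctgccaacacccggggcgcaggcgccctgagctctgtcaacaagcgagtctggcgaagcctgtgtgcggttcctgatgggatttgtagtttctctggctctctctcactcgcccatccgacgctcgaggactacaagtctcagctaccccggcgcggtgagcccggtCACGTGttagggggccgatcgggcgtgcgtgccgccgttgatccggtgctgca
Mnt: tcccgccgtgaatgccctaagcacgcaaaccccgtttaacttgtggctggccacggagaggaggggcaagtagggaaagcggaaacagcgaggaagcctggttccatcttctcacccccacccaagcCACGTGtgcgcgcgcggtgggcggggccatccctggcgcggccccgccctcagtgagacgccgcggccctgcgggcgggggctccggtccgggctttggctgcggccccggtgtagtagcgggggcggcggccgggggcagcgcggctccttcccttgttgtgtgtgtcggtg
Mxd4: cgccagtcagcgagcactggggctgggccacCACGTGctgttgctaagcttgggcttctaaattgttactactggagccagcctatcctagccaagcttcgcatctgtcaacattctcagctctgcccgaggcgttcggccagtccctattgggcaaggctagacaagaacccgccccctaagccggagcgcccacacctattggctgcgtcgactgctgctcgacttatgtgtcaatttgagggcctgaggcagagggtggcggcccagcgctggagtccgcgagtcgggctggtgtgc
Mycn: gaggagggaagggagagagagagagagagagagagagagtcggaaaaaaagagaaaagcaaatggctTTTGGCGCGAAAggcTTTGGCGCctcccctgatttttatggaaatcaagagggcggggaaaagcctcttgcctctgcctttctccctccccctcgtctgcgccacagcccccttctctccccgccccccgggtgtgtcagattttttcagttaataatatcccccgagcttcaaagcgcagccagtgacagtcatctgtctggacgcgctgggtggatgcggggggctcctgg
Mxd3: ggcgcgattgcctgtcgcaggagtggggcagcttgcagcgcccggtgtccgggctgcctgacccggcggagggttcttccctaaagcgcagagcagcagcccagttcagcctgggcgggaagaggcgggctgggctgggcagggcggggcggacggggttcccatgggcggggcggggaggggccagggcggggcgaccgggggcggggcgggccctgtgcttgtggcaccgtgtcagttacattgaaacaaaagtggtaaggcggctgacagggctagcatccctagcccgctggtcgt
A match describes these letters only.

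Within the MYC family, Mycl was the most abundant gene in both libraries, Myc was lower and Mycn lowest. Mycl encodes L-MYC, first found as an amplified gene in human small cell lung cancer (chr4:122995652-123002485, GRCm38). It was at 61.4 CPM in vehicle (58.8 to 64.2) and 43.7 in cisplatin (41.3 to 46.2), a log2 ratio of -0.48 after adding 1 CPM to each level, and the intervals did not overlap. Myc (chr15:61985391-61990374), the family's founder, was at 21.0 CPM in vehicle (19.4 to 22.6) and 23.8 in cisplatin (22.0 to 25.6), with overlapping intervals. Mycn (chr12:12936093-12941914), expressed in embryonic neural tissue, was at 6.88 and 6.84 CPM, from 220 and 195 UMIs. Levels of different genes are set side by side per captured molecule, not divided by length, and whether capture differs between genes was not tested. Neither Mycl nor Myc nor Mycn reached the 1.5-fold difference used as the limit for a call.

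Most tumour-like cells showed no UMI of a MYC family gene once cells were thinned to 3000 UMIs to even out depth. A Mycl UMI was found in 16.9% of 3498 thinned vehicle cells (15.7 to 18.2%) and 10.6% of 3847 thinned cisplatin cells (9.62 to 11.6%). A Myc UMI was found in 5.52% (4.78 to 6.33%) and 6.16% (5.42 to 6.97%), and a Mycn UMI in 1.86% (1.44 to 2.36%) and 2.29% (1.84 to 2.81%). Cells with none of the 3 made up 76.9% and 82.1%. Without thinning, at median depths of 8206 and 5937.5 UMIs, the shares for Mycl were 35.9% and 21.0%, for Myc 13.1% and 12.0%, and for Mycn 5.30% and 4.09%.

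Free RNA can add to such shares, and barcodes of other cell types were taken as a rough reference. Of 36 thinned barcodes marked as T and NK, myeloid, endothelial or other cell types (median depth of all 39 such barcodes 8113 UMIs), 2 held a Mycl UMI (5.56%; 0.680 to 18.7%), 1 a Myc UMI and 1 a Mycn UMI (each 2.78%; 0.0703 to 14.5%). The Mycn shares of both libraries lie below that value, and the Mycl and Myc shares lie above theirs. The Mycn value rests on 1 barcode, so it cannot decide whether the Mycn shares are expression, and they are not read as a difference. All of them are within the wide intervals that 36 barcodes give. As summed levels, these barcodes had Mycl at 27.1 CPM (14.4 to 46.3), Myc at 6.25 (1.29 to 18.3) and Mycn at 6.25 (1.29 to 18.3). The last rests on 3 UMIs, and Mycn in tumour-like cells is not told apart from it. Delta-like cells of the cisplatin library had less Mycl than these barcodes, at 4.56 CPM (3.03 to 6.59), and Mycn at 6.03 (4.25 to 8.31). Whether the other cell types express these genes themselves was not tested, so the part of free RNA in the reference is not known.

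**Figure D1:**
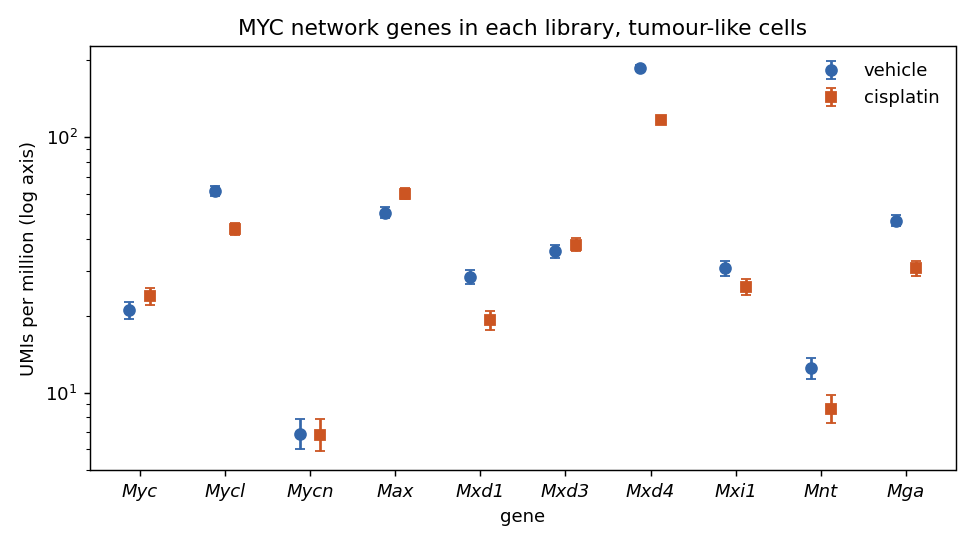
Level of each of the 10 MYC network genes in neuroendocrine tumour-like cells, in CPM on a log axis, with exact 95% Poisson intervals; circles are the vehicle library and squares the cisplatin library. Mxd4 stands highest at 187 and 117 and Mycn lowest at 6.88 and 6.84 CPM.

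The repressor Mxd4 was the most abundant member of the network in both libraries, and it and Mga were the members that passed the 1.5-fold limit between them. Mxd4 (chr5:34173883-34187720), an MXD protein of differentiating cells, was at 187 CPM in vehicle (182 to 191) and 117 in cisplatin (113 to 121; log2 ratio -0.67). Mga, the scaffold of a Polycomb repressor complex and the only member with a T-box as well (chr2:119897228-119969581), was at 47.0 (44.7 to 49.5) and 30.6 (28.6 to 32.7; log2 ratio -0.61). Both were higher in vehicle. Thus 2 of 10 members were lower and 0 higher in cisplatin, against 21.4% of all 13368 measured genes lower and 8.18% higher, so the share of members called lower was near that of all genes. With all kept barcodes, Mxd1 also passed (28.8 and 19.2 CPM), 3 of 10 lower against 21.7% of genes lower and 8.09% higher. Mxd1 stood at 285 CPM in the 9 barcodes marked as myeloid, whose part in that call was not tested.

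The remaining partners lay within 1.5-fold. Max, the obligate partner (chr12:76937269-76962201), was at 50.6 CPM in vehicle (48.2 to 53.2) and 60.0 in cisplatin (57.2 to 62.9). Mxd1 (chr6:86647042-86669161), a repressor induced as cells leave the cycle, was at 28.3 (26.5 to 30.2) and 19.2 (17.6 to 20.9), just under the limit. Mnt (chr11:74830920-74845725), a widely expressed antagonist of MYC, was at 12.5 (11.3 to 13.7) and 8.63 (7.58 to 9.78). Max was higher in cisplatin while Mxd1 and Mnt were lower, with no overlap of intervals in any of the 3. Mxi1 (chr19:53310518-53375810), also an MXD protein, was at 30.6 and 25.8 CPM, and Mxd3 (chr13:55325168-55329823) at 35.7 (33.7 to 37.9) and 37.9 (35.7 to 40.2). In the order of levels, neighbours with overlapping intervals were Max and Mga, and Mxi1 and Mxd1, in vehicle, and Mxi1 and Myc, and Mnt and Mycn, in cisplatin.

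Scaling and transcript length bear on these differences. The median log2 ratio of all measured genes was -0.16, and that of the 10 members was -0.36. With TMM factors (trimmed means of log ratios), the scaling shifted the median of all genes to -0.02 and the split of called genes from 1093 higher and 2856 lower to 1574 and 1891, and no member was then called. The median ratio over all genes also fell with the length of a gene's longest annotated transcript, from 0.16 in the shortest of 20 length bins to -0.50 in the longest, which holds Mga (13931 bases). Relative to genes of like length, a step added after seeing the data, Mga was at -0.11, Mxd4 at -0.38, Mycl at -0.27 and Max at 0.24 on the log2 scale, with no member past the limit. The cause of the length trend was not tested.

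The delta-like cells had little Mycl. Within the cisplatin library Mycl was at 54.5 CPM in the other tumour-like cells (51.5 to 57.6) and at 4.56 in delta-like cells (3.03 to 6.59), an 11.9-fold difference. Myc was at 28.0 (25.9 to 30.3) and 8.31 (6.19 to 10.9), Mxd4 at 131 (126 to 135) and 65.5 (59.3 to 72.2), Mxd1 at 21.2 and 11.7, and Mnt at 9.48 and 5.54. These 5 of 10 members were lower in delta-like cells and 0 were higher, against 21.1% and 12.3% of 12193 measured genes. Max stayed level at 60.1 (56.9 to 63.4) and 59.5 (53.5 to 65.9), and Mga was at 29.0 (26.8 to 31.3) and 36.2 (31.6 to 41.3). In thinned delta-like cells 0.989% had a Mycl UMI and 2.68% a Myc UMI (708 cells), both at or under the shares in barcodes of other cell types.

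Leaving the delta-like cells out brought the libraries closer for Mycl and apart for Myc. Mycl was then at 61.8 CPM in vehicle (59.1 to 64.6) and 54.5 in cisplatin (51.5 to 57.6), a log2 ratio of -0.18 in place of -0.48. Myc was at 21.1 (19.5 to 22.8) and 28.0 (25.9 to 30.3), a log2 ratio of 0.39 in place of 0.17, and its intervals no longer overlapped. Mxd4, at 188 and 131, was no longer past the limit, and Mga, at 47.1 and 29.0, was the single member called (1 of 10 lower, against 20.3% of genes lower and 5.70% higher).

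Cell cycle state was read from each thinned cell: mitotic-transcript cells had at least 2 UMIs over 10 mitotic genes, replication-gene cells at least 5 over 20 replication genes, and the rest neither. In vehicle these states held 24.8%, 36.6% and 38.6% of cells, and in cisplatin 32.9%, 26.8% and 40.3%. The calls read free RNA too, and cells near the limits were common: 611 vehicle and 613 cisplatin cells had 1 mitotic UMI and 152 and 157 had exactly 2. Levels by state are given without the delta-like cells. The state calls use no MYC network gene.

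Mxd3, an MXD protein known in mouse embryos for its expression in dividing cells, was far higher in cells with cell cycle transcripts. In vehicle it was at 3.94 CPM in cells of neither state (2.82 to 5.37), 21.3 in replication-gene cells (18.7 to 24.1) and 88.9 in mitotic-transcript cells (83.0 to 95.1). In cisplatin it was at 4.16 (2.78 to 5.97), 22.1 (18.3 to 26.4) and 77.3 (71.7 to 83.2). The order was the same in both libraries and no interval overlapped between states, with ratios of mitotic-transcript cells to cells of neither state of 22.5-fold and 18.6-fold. Prelid1, which lies over Mxd3 on the opposite strand, was at 131, 127 and 134 CPM in the mitotic, replication and neither states of vehicle and at 102, 109 and 112 in those of cisplatin, so it did not follow Mxd3. Whether counting used the strand is not given in the sources used here.

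Myc ran the other way. It was at 28.7 CPM in vehicle cells of neither state (25.5 to 32.2), 21.3 in replication-gene cells (18.7 to 24.1) and 12.7 in mitotic-transcript cells (10.6 to 15.2). In cisplatin the levels were 39.6 (35.0 to 44.5), 27.2 (23.0 to 32.0) and 19.0 (16.3 to 22.0). In both libraries Myc was lowest in mitotic-transcript cells, 2.26-fold and 2.09-fold under the cells of neither state. The shares of thinned cells with a Myc UMI were 6.91%, 5.74% and 3.12% in vehicle and 8.91%, 7.29% and 4.43% in cisplatin, in the same order.

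Mycl passed the limit between states in cisplatin mitotic-transcript cells, where it was higher, and in no other of these comparisons. In vehicle it was at 51.1 CPM in cells of neither state (46.8 to 55.7), 67.8 in replication-gene cells (63.2 to 72.7) and 66.0 in mitotic-transcript cells (60.9 to 71.4), all within 1.5-fold. In cisplatin it was at 38.7 (34.2 to 43.6), 48.7 (43.0 to 55.0) and 71.2 (65.9 to 76.9). The log2 ratio of mitotic-transcript cells to cells of neither state was 0.36 in vehicle (0.20 to 0.54) and 0.86 in cisplatin (0.67 to 1.09), where it passed the limit, and the difference between the libraries has no replicate check. Between the libraries Mycl was lower in cisplatin in cells of neither state and in replication-gene cells, by less than 1.5-fold and with intervals apart, and its intervals overlapped in mitotic-transcript cells. Mycn was at 6.41, 7.61 and 6.41 CPM in vehicle and 5.16 (3.62 to 7.15), 7.04 and 8.46 (6.68 to 10.6) in cisplatin, in the same order of states, all within the interval of the barcodes of other cell types.

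Counting the members called, 1 of 10 was higher and 1 lower in mitotic-transcript cells of vehicle (Mxd3 and Myc), where 13.5% of genes were higher and 8.13% lower. In cisplatin 3 were higher (Mxd3, Mycl and Mycn) and 1 lower (Myc), against 16.3% and 9.62% of genes. The Mycn call rests on 36 UMIs in cells of neither state and 78 in mitotic-transcript cells, and the intervals of its levels overlap. In replication-gene cells Mxd3 and Mxi1 were higher in both libraries and no member was lower, against 10.2% and 2.95% of genes in vehicle and 10.1% and 4.15% in cisplatin. Mxi1 peaked there, at 37.2 CPM in vehicle (33.8 to 40.8) and 35.8 in cisplatin (30.9 to 41.2), beside 23.8 and 20.6 in cells of neither state and 29.7 and 26.6 in mitotic-transcript cells. Max, Mxd1, Mxd4, Mnt and Mga were within 1.5-fold of their level in cells of neither state in both libraries. With the delta-like cells kept, the same numbers of members were called: 1 higher and 1 lower against 13.5% and 8.08% of genes in mitotic-transcript cells of vehicle, and 3 and 1 against 14.9% and 9.31% in those of cisplatin. In replication-gene cells they were 2 and 0 against 10.3% and 2.96% in vehicle and 2 and 0 against 9.05% and 3.56% in cisplatin.

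**Figure D2:**
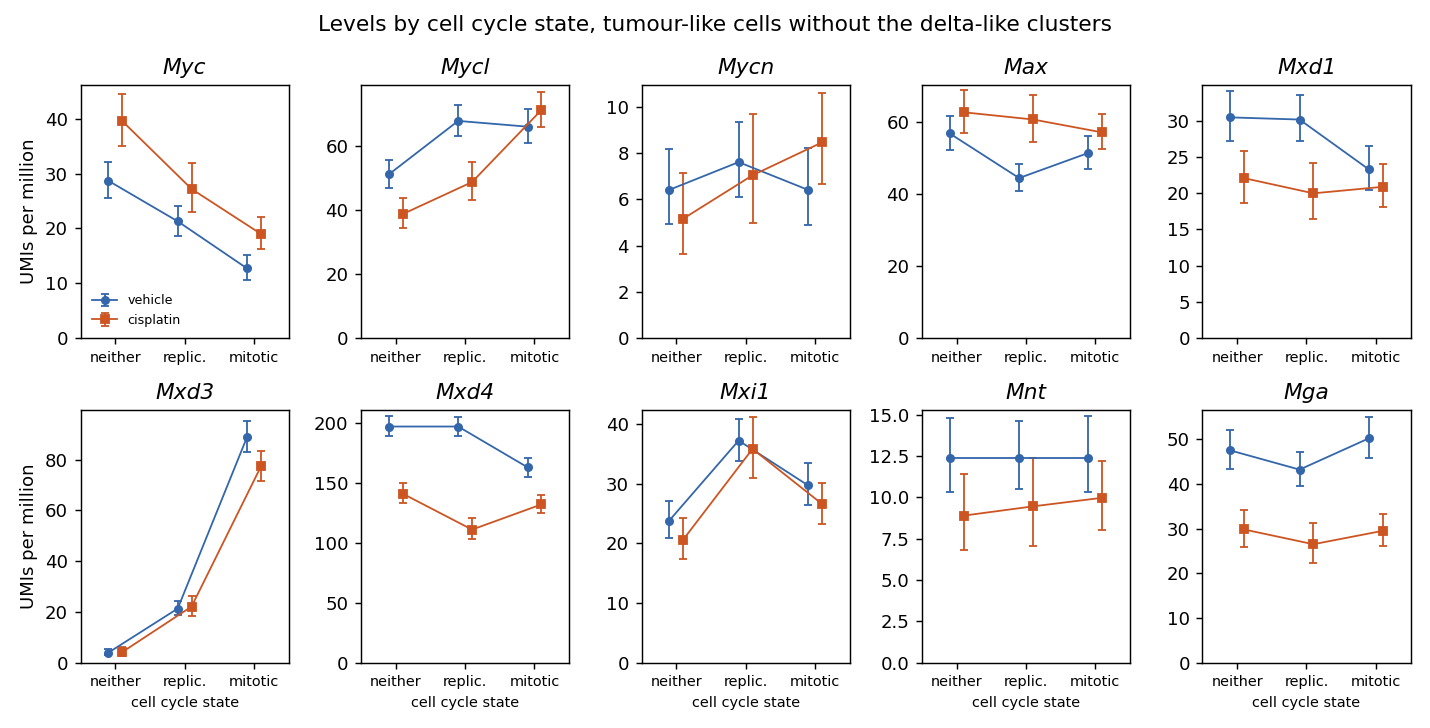
Levels of the 10 MYC network genes (CPM, linear axes from 0) in cells of neither state, replication-gene cells and mitotic-transcript cells of each library, without the delta-like clusters; bars are exact 95% Poisson intervals. In both libraries Mxd3 rises to 88.9 and 77.3 in mitotic-transcript cells, Myc falls to 12.7 and 19.0, and Mxi1 peaks in replication-gene cells.

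The libraries were also compared within each state. In mitotic-transcript cells Mga was lower in cisplatin, at 50.2 CPM in vehicle (45.8 to 55.0) and 29.5 in cisplatin (26.1 to 33.2), 1 member of 10 against 19.2% of genes lower and 5.59% higher. In replication-gene cells Mxd1, Mxd4 and Mga were lower (3 of 10, against 21.1% and 4.97%), and in cells of neither state Mga (1 of 10, against 20.4% and 4.62%). With the delta-like cells kept, 1 member was lower in mitotic-transcript cells (against 20.2% of genes lower and 7.01% higher), 3 in replication-gene cells (23.4% and 7.07%) and 5 in cells of neither state (22.0% and 7.20%), with Mycl among them in the latter 2 states. Without them, Myc was higher in cisplatin in each state by 1.49-fold, 1.28-fold and 1.38-fold in mitotic-transcript, replication-gene and neither cells, each under the limit.

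Outside the delta-like clusters, groups of cells with more Myc had less Mycl, and over all groups the levels showed no such order. Among the 12 groups formed by library and cluster with at least 100 cells, Myc was highest in cluster 4, at 44.7 CPM in vehicle (35.0 to 56.3) and 54.9 in cisplatin (42.9 to 69.3), where Mycl was at 32.9 (24.7 to 43.1) and 19.3 (12.5 to 28.5). Mycl was highest in cluster 7 of vehicle at 95.8 (79.0 to 115), with Myc at 15.1 (8.96 to 23.9). Among the groups Mycn was highest in cluster 4 of cisplatin, at 15.5 CPM, and cluster 7 of vehicle, at 15.1, with intervals of 9.45 to 23.9 and 8.96 to 23.9, from 20 and 18 UMIs. Over the 10 groups outside the delta-like clusters, a set picked after seeing the values, Pearson's r of log2 levels was -0.90, and over all 12 groups it was 0.16, since the delta-like groups were low in both genes. Groups of 1 library share that library and differ in cell cycle state, which moves with both genes: 100% of cells of vehicle cluster 0 and 99.0% of those of cisplatin cluster 11 were mitotic-transcript cells, and 58.3% of vehicle cluster 1 and 69.8% of cisplatin cluster 5 were of neither state. The largest cluster of each library, 1 in vehicle (2097 cells) and 5 in cisplatin (1820 cells), had Myc at 27.1 and 38.7 and Mycl at 54.2 and 39.3 CPM.

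Cluster 4 was led by the stress genes Nupr1, Trib3, Stc2, Adm2 and Ddit3 with the fibroblast gene Dcn, and held cells of both libraries (183 and 200). Against the other tumour-like cells without the delta-like clusters, Myc was 2.25-fold higher there in vehicle and 2.08-fold higher in cisplatin, and Mycl 1.92-fold and 2.93-fold lower. In vehicle 1 member was higher (Myc) and 3 lower (Mycl, Mxd3 and Mxd4), against 11.7% and 18.4% of genes. In cisplatin 5 were higher (Myc, Mycn, Max, Mnt and Mga) and 2 lower (Mycl and Mxd3), against 20.1% and 19.4%. The Mycn level there rests on 20 UMIs. Mga was at 58.8 CPM in cisplatin cells of the cluster (46.3 to 73.6) and 27.2 in the other cells (25.0 to 29.5), and at 62.7 and 46.2 in vehicle. Mitotic-transcript cells made up 13.5% and 27.5% of the cluster's cells, and the part of cell cycle state in its Mxd3 levels was not tested.

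**Figure D3:**
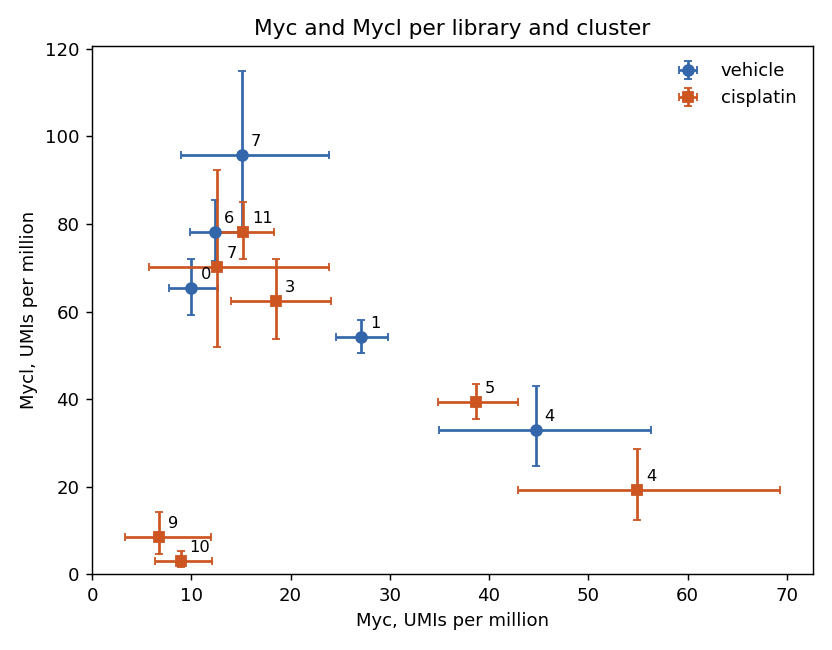
Level of Mycl against that of Myc, both in CPM on linear axes, in each group of cells formed by library and cluster (numbers) with at least 100 cells; bars are exact 95% Poisson intervals. Outside the delta-like clusters 9 and 10, groups high in Myc, such as cluster 4 at 44.7 and 54.9, are low in Mycl.

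In single cells no mutual exclusion of Myc and Mycl was detectable. In thinned vehicle cells 25 held UMIs of both, where the product of the shares gives 32.6, a ratio of 0.77 (0.50 to 1.13), and in cisplatin 29 did, where the product gives 25.1, a ratio of 1.16 (0.77 to 1.66). Both intervals include 1. Among cells with a Myc UMI, 13.0% (8.56 to 18.5%) of vehicle and 12.2% (8.35 to 17.1%) of cisplatin cells had a Mycl UMI, beside 17.1% and 10.5% of cells without one. With the product taken within clusters the ratios were 0.83 and 1.21.

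Using all UMIs narrows the intervals. In 3641 vehicle cells 192 held both Myc and Mycl, against 189 when the product is taken within 20 bins of cell depth, a ratio of 1.02 (0.88 to 1.17). In 4208 cisplatin cells 123 did, against 116, a ratio of 1.06 (0.88 to 1.26). The lower bound was 0.88 in both libraries. With the product taken within clusters and 5 depth bins it was 0.92 in vehicle and 0.84 in cisplatin. These bounds cover counting error in the number of cells with both genes. They set no limit on a shortfall that doublets or free RNA could hide. The depth bins were added after seeing the data. By state, without the delta-like clusters and within 10 depth bins, the ratios were 1.05, 0.97 and 1.10 in mitotic-transcript, replication-gene and neither cells of vehicle and 1.08, 0.72 (0.45 to 1.09) and 1.03 in those of cisplatin. The thinned vehicle mitotic-transcript cells gave a ratio of 0.18, but from 1 cell against 5.53.

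The pairs with Mycn rest on few cells. Thinned, Myc and Mycn met in 4 vehicle and 9 cisplatin cells (ratios 1.12 and 1.66) and Mycl and Mycn in 13 and 5 (1.18 and 0.54). With all UMIs and depth bins the ratios were 1.09 (0.74 to 1.53) and 1.08 (0.69 to 1.61) for Myc and Mycn, and 1.07 (0.85 to 1.33) and 0.82 (0.57 to 1.15) for Mycl and Mycn. All of these intervals include 1. No thinned cell held all 3 genes (0 of 3498 and 0 of 3847, upper limits of 0.105% and 0.0958%), and with all UMIs 13 vehicle and 6 cisplatin cells did. Doublets and free RNA can put UMIs of both genes under 1 barcode, and their part was not tested.

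**Figure D4:**
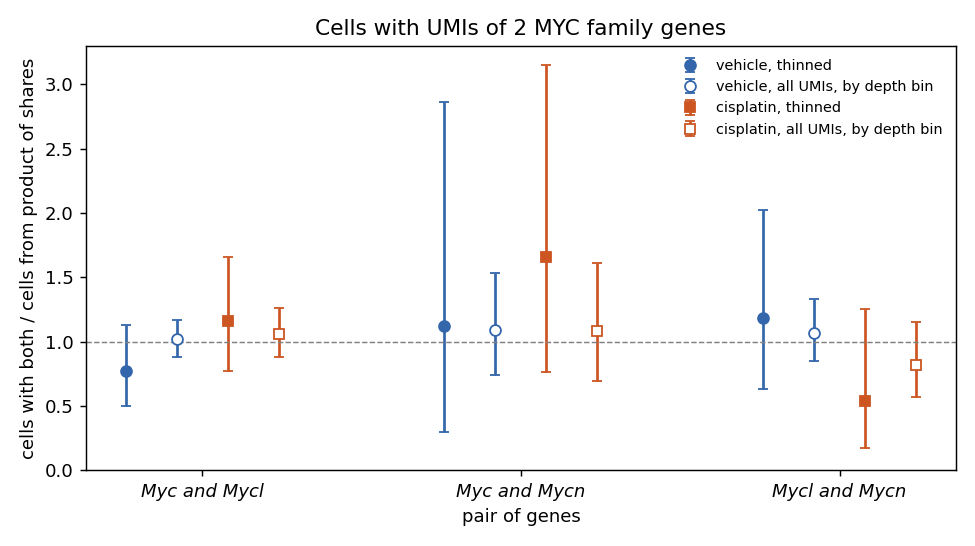
Number of cells with UMIs of both genes of a pair, divided by the number that the product of the single shares gives, for each pair of MYC family genes and each library; filled symbols are cells thinned to 3000 UMIs, open symbols all UMIs with the product taken within 20 depth bins, and bars are exact 95% Poisson intervals. The dashed line at 1 marks the product, and every interval includes it.

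Genes with patterns like those of the MYC family over the 12 groups were named by Pearson's r of log2 levels among the 6290 genes whose mean level reached 20 CPM, as a description. For Mycl they were Ppt2 (0.97), Tspan15 (0.96), and Cdkn1c, Rras2 and Homer2 (each 0.95). For Myc they were Borcs6 (0.92), Dhrs7 (0.91), Eif3g (0.90), and Mob1b and Qtrt1 (each 0.86), and for Mycn Cops4 (0.84), Psmd2 (0.83), Fubp1 and Mak16 (each 0.81) and Jagn1 (0.80). The Mycn values rest on few UMIs in some groups, such as 8 in cluster 4 of vehicle. Cdkn1c, a cyclin-dependent kinase inhibitor, ranged from 6.01 to 125 CPM over the groups. Within the network the closest pairs were Mxd1 and Mnt (0.87), Mycl and Mxd4 (0.82), Mycn and Max (0.79) and Myc and Mnt (0.75). Over the 10 groups outside the delta-like clusters these became 0.78, 0.52, 0.82 and 0.61, and Mnt and Mga, at 0.71 over all groups, were closest at 0.92. The genes named for Mycl were then at 0.76 to 0.96, those for Myc at 0.85 to 0.91 and those for Mycn at 0.82 to 0.90.

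Other genes of the pathway were read as lists, with the call of 1.5-fold between libraries. Of 30 genes known to be induced by MYC, 1 was higher and 4 lower in cisplatin (8.18% and 21.4% of all genes), with a median log2 ratio of -0.08 beside -0.16 for all genes. Eif4e, the cap-binding translation factor, was at 148 CPM in vehicle (144 to 152) and 249 in cisplatin (243 to 255). Ncl, which encodes the nucleolar protein nucleolin, was at 499 (492 to 507) and 281 (275 to 287), Tfrc, the transferrin receptor, at 30.1 and 15.2, and Cad, a pyrimidine synthesis enzyme, at 9.51 and 5.40. Of 7 measured genes repressed by MYC, 0 were called (median -0.22), with Thbs1, a secreted matrix protein, the farthest at 139 and 99.5.

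Among regulators of the network, the MLX branch, a parallel set of glucose-sensing factors and their targets, had 2 of 5 genes higher and 2 lower in cisplatin. Over all genes 8.18% were higher and 21.4% lower, against which the lists' counts are to be read. The lists were not set against genes of like transcript length, with which the ratio between libraries fell. The targets Txnip (185 and 308 CPM) and Arrdc4 (14.8 and 24.1) were higher, and the factors Mlxipl (7.63 and 3.86) and Mlxip (8.48 and 4.60) lower.  In the MGA complex list 2 of 9 were higher and 0 lower, with a median log2 ratio of -0.25 beside -0.16 for all genes. Without the delta-like cells this median was -0.15. Mga itself was lower, but at -0.11 relative to genes of like length. Of the 2 higher genes, Cbx3, which encodes the heterochromatin protein HP1 gamma, was at 215 (210 to 220) and 439 (431 to 446). Yaf2, a Polycomb subunit, was at 61.7 and 101. The coactivator list had 0 higher and 3 of 10 lower (Ep400, Bptf and Wdr5), and the list of proteins that control MYC stability 0 and 2 of 9 (Usp7 and Skp2). Without the delta-like cells Arrdc4, Wdr5 and Skp2 were within 1.5-fold, while Cdkn2b, Ndrg1 and Trrap were lower in cisplatin. In mitotic-transcript cells over cells of neither state, 4 of 9 genes of the MGA complex list were higher in vehicle and 5 of 9 in cisplatin, and 0 lower, where 13.5% and 16.3% of all genes were higher and 8.13% and 9.62% lower. The list's medians were 0.42 and 0.61 beside 0.01 and 0.05 for all genes. In the same comparison 2 of 30 MYC-induced genes were higher and 1 lower in vehicle and 4 and 1 in cisplatin, with medians of 0.09 and 0.21. The coactivator list had 2 and 3 of 10 higher and 0 lower, the stability list 2 of 9 higher and 0 lower in both, and the MLX branch 1 of 5 higher and 0 lower in both. Of 7 MYC-repressed genes, 1 was higher and 1 lower in vehicle, and 0 and 2 in cisplatin. In replication-gene cells over cells of neither state, 3 of 30 MYC-induced genes were higher in vehicle and 6 in cisplatin, and 0 lower. Their medians were 0.11 and 0.30 beside 0.00 and 0.01 for all genes. Over all genes 10.2% and 10.1% were higher there and 2.95% and 4.15% lower.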

How the data were processed

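Per the labels' protocols, tumours were broken up with enzymes, GFP-positive cells were sorted and 10x Genomics libraries were made. The matrices the authors deposited hold raw counts of UMIs, not normalized. Cell Ranger 2.0.2 and mm10 are named in the submitters' processing notes. The members, the gene lists and the markers were chosen with earlier results of these data known. An allele named in the labels and a gene list are not reported here.

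Barcodes with under 500 genes or over 10% mitochondrial UMIs were dropped. The rest were clustered with scanpy 1.11.5 (2000 variable genes, 30 components, Leiden resolution 0.5) without the MYC network, pathway and cell cycle genes. A class needed 3 markers at 100 CPM. Barcodes with 3 markers of another cell type (29 and 10) were set aside, a limit chosen after seeing the data. Scrublet, set to an expected doublet rate of 0.06, marked 1 and 6 barcodes. This was under 0.5%, so no doublet was removed, and the cells kept can include doublets.

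Counts were summed over cells and divided by the summed total, per 1000000 UMIs (CPM). Log2 ratios have 1 CPM added and their intervals do not. A gene was measured with 50 UMIs over both sides and called at 1.5-fold. On simulated data for the library comparison, 97.4% of 195 genes changed 2-fold were called, and 0.911% of unchanged ones (13363 genes measured). The simulated counts held Poisson error around 1 shared profile, with no library or transcript length effect. These rates therefore do not give the error of calls between the real libraries, nor the recovery of changes near 1.5-fold. Shares have Clopper-Pearson intervals and summed levels Poisson intervals. A co-detection interval is the Poisson interval of the observed number over the product.

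Coordinates come from GENCODE M21 (GRCm38), which held 28339 of 28692 gene identifiers. Named genes were all members, up to 4 genes per list with the largest ratio, the 5 genes most like each MYC family gene, and genes that lead a cluster. Other scalings used edgeR 4.0.16 and DESeq2 1.42.0 (normalization factors only). Alternatives for scaling, floor, fold, filters, resolution, thinning and state limits were planned; those by transcript length, by depth bin, for likeness without the delta-like groups, relative to all genes and without cluster 4 were chosen after seeing the data.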

Additional observations from a re-analysis of the deposited data

How the results depend on the processing

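No paired analysis was possible because each group has 1 library. The 2 members called lower in cisplatin became 0 under TMM, median-of-ratios size factors, a 2-fold limit, centring on the median of all genes and comparison with genes of like transcript length. They became 1 without the delta-like clusters and 5 in cells of neither state. The count of 0 higher was kept under every one of these and under the other settings run. The vehicle co-detection ratio of Myc and Mycl, 0.77, was 1.15 when thinned to 2000 UMIs, 0.91 at 5000 UMIs and 0.85 with another seed. In replication-gene cells of vehicle, the 2 members higher became 1 with a limit of 3 replication UMIs. With a limit of 8, or with states read at 5000 UMIs, the 0 members lower became 1 in both libraries. Of 486 values recomputed in all, 410 stayed within the main interval or within 1.5 times the main count, and 76 moved beyond it. Only log2 ratios of members called in the main setting could be marked as reversed, and 0 were. Counts, shares and co-detection ratios could not be so marked. Depth limits Mycn most, with about 200 UMIs per library, and with 1 library per group no difference is separated from a difference between libraries.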
